A study of Mus musculus with 3 samples.

Results

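Elf5, Cdx2, Gata3, Tfap2c, Tead4, Hand1 and Eomes are 7 transcription factor genes of the trophoblast, the outer cell layer of the early embryo that gives rise to the placenta. They were chosen by name among 21938 protein-coding genes of the GENCODE M21 annotation. All CCGG sites inside these 7 genes or within 10 kb of them were taken, which gave 561 CCGG motifs in the GRCm38 mouse genome. In at least 1 of the 3 libraries 432 sites were listed, 2 of them not a CCGG in the reference, and 215 were listed in all 3. Around all protein-coding genes, with 961138 motifs, 661365 sites were listed in at least 1 library and 472553 in all 3. Sites listed in all 3 libraries were thus a smaller part of the listed sites near the 7 genes.

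Embryonic stem cells derive from the inner part of the blastocyst and rarely enter the trophoblast lineage. DNA methylation is part of that barrier, and the methylated Elf5 promoter is its best known element, since Elf5 sustains a loop with Cdx2 and Eomes in trophoblast stem cells. Tead4 acts upstream of Cdx2 and Gata3 in the outer cells, Tfap2c cooperates with Eomes and Gata3, and Hand1 drives the formation of giant cells.

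The libraries were made by MethylRAD from wild-type E14Tg2A mouse embryonic stem cells. The enzyme FspEI cuts on both sides of a CCGG with 5-methylcytosine or 5-hydroxymethylcytosine and releases a short fragment, so that reads come from modified copies and the 2 modifications are not told apart. The undifferentiated sample was kept with leukemia inhibitory factor (day 0), and the untreated sample was differentiated for 7 days by withdrawal of this factor and addition of retinoic acid. The treated sample was differentiated in the same way with 3 mM pargyline, an inhibitor of the histone demethylase LSD1. Day and dose are those of the published study. The deposited tables of both differentiated samples carry a 4 beside the abbreviation for retinoic acid in their names, and whether it stands for a day is not stated, so that the day of sampling is uncertain.

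Each condition had 1 library, so conditions were not tested against each other and no difference has a replicate check. The 95% intervals reflect counting error alone. The names of the deposited tables mention removed duplicates. The study describes adding up the counts of sites duplicated between motif patterns. It does not say whether PCR copies of a fragment were removed, so that reads may not be independent molecules. Expression was not measured, so the identity of the cells could not be checked against marker genes, and shares of cells and methylation per cell cannot be told apart. The tables held 31614085, 36654600 and 25767119 CCGG reads in the undifferentiated, untreated and treated samples. Scaled reads below are reads per 1000000 of these CCGG reads. The tables also give RPM, which counts reads against all mapped reads. RPM multiplies the ratios below by 0.802 for untreated to undifferentiated, 0.618 for treated to undifferentiated and 0.771 for treated to untreated, so that ratios a little above 1 turn below it. A site with fewer than 5 reads is not listed in the tables, and 5 reads corresponded to 0.158, 0.136 and 0.194 on this scale.

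Promoters, taken as 1 kb on each side of each start site, held 106 of the 561 motifs. The undifferentiated sample listed 15 of these (14.2%, Clopper-Pearson interval 8.14 to 22.3). The untreated sample listed 28 (26.4%, 18.3 to 35.9) and the treated one 45 (42.5%, 32.9 to 52.4). The shares over promoters of all protein-coding genes were 16.7%, 22.4% and 26.4%. The 7 promoters were thus close to all promoters in the undifferentiated and untreated samples and above them in the treated sample. In gene bodies 147, 160 and 196 of 262 motifs were listed in the undifferentiated, untreated and treated samples (56.1%, 61.1% and 74.8%), against 67.2%, 67.5% and 67.4% over all protein-coding genes. As counted, member bodies were below all genes in the first 2 samples and above them in the treated one. This comparison is uneven, because 43 of the 262 member body motifs, all in Gata3, lay in promoters of other genes. Over all genes such motifs counted as promoter, here and in the body and flank comparisons below. The Gata3 body upstream of its start site listed 14, 21 and 41 of 63 motifs, so the lower member share is not established. In the flanks 103, 110 and 140 of 193 motifs were listed (53.4%, 57.0% and 72.5%), against 58.0%, 57.9% and 58.9%. Listed promoter motifs of the 7 genes had few reads in each sample. Their medians were 12, 8.5 and 9 in the undifferentiated, untreated and treated samples, against 16, 13 and 11 over all promoters.

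The 2 genes with a promoter site listed in all 3 samples were Elf5 and Hand1, and their promoters had the lowest CpG content. All 11 Elf5 promoter motifs and 7 of 11 Hand1 promoter motifs lay in windows of low CpG content, against 1 of 16 for Tead4 and 0 for the other 4 genes. CpG content was classed in 500-base windows by the observed to expected CpG ratio, as low under 0.48, as high over 0.75 with more than 55% GC, and otherwise as intermediate. Per promoter motif, Elf5 had 0.512, 0.543 and 0.854 scaled reads in the undifferentiated, untreated and treated samples. These values exceeded those of 88.5%, 89.1% and 93.6% of the 15970 protein-coding genes with at least 3 promoter motifs. Hand1 followed with 0.244, 0.325 and 0.441. The other 5 genes stayed at 0.0158 or below in the undifferentiated sample, and 35.1% of the 15970 genes had no listed promoter site there. The Elf5 rank is among promoters of every CpG class and not among those of low CpG content. Elf5 listed 7, 8 and 9 of its 11 promoter motifs in the 3 samples. Over all genes, 53.9%, 56.9% and 61.2% of promoter motifs in low windows were listed.

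**Figure D1:**
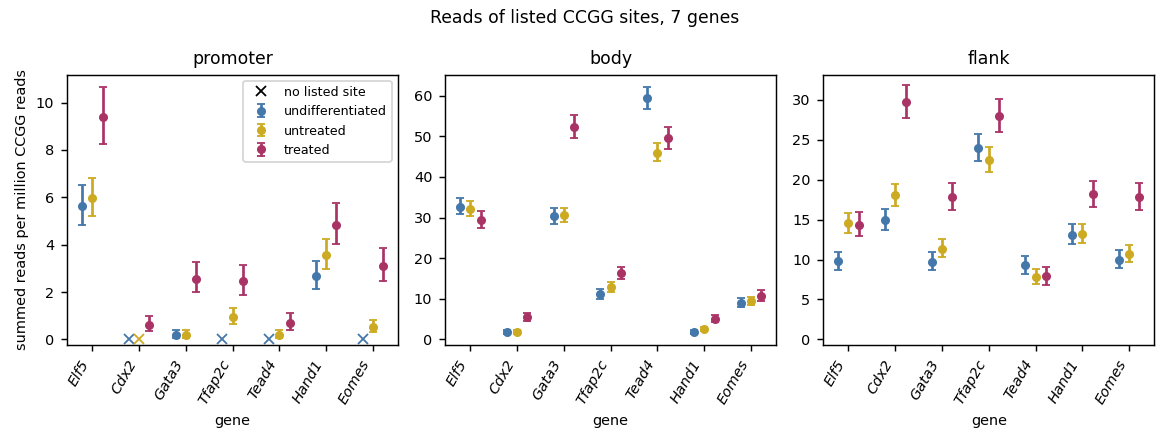
Summed scaled reads of listed CCGG sites for the 7 genes in the undifferentiated, untreated and treated samples, in promoters, bodies and flanks. Bars are 95% Poisson intervals of the listed reads, and crosses mark promoters without a listed site. Elf5 and Hand1 had the highest promoter values in all 3 samples.

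Elf5 encodes an ETS factor and lies on chromosome 2 at 103411688 to 103450989 on the plus strand. Its summed promoter reads were 178, 219 and 242, or 5.63 (4.83 to 6.52), 5.97 (5.21 to 6.82) and 9.39 (8.25 to 10.7) scaled reads in the undifferentiated, untreated and treated samples. The first 2 intervals overlapped and the treated value lay above both. The ratio was 1.06 (0.867 to 1.30) for untreated to undifferentiated, 1.67 (1.37 to 2.04) for treated to undifferentiated and 1.57 (1.30 to 1.90) for treated to untreated. None reached 2-fold. With RPM as the scale, treated to undifferentiated became 1.03, and with promoters of 3 kb it became 0.925, so that the higher treated value depended on the scale and on the window.

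The difference lay at the later Elf5 start sites (103424062 and 103424126). The sums there were 116, 141 and 190 reads in the undifferentiated, untreated and treated samples. The treated to undifferentiated ratio there was 2.01 (1.59 to 2.55), and the RPM factor of 0.618 takes it under 2-fold. Treated to untreated was 1.92 (1.53 to 2.40). At the first start site (103411688) the sums were 62, 78 and 52 reads, with a treated to undifferentiated ratio of 1.03 (0.698 to 1.51). A called change is from here on at least 2-fold in scaled reads with an interval that excludes 1, and an unlisted site is taken as 4 reads, so that its ratio is a bound. Adjacent sites in the intron upstream of the later starts, 47 bp apart, moved in opposite directions relative to the undifferentiated sample. The site at 103423603, 459 bp upstream, had 33, 5 and 12 reads in the undifferentiated, untreated and treated samples, and was lower in the untreated (ratio 0.131, 0.0398 to 0.337) and the treated sample (0.446, 0.210 to 0.886). The site at 103423650, 412 bp upstream, had 12, 56 and 63 reads and was higher in both, with ratios of 4.02 (2.13 to 8.25) and 6.44 (3.44 to 13.1). From untreated to treated, 103423603 was higher at 3.41 (1.12 to 12.4), a called change, and 103423650 was at 1.60 (1.10 to 2.34). Downstream of the start, the intronic sites at 103424326 and 103424358 were unlisted in the undifferentiated sample and had 8 and 7 reads after differentiation alone and 23 and 16 with pargyline. Their treated values were at least 7.05 and 4.91 times the undifferentiated ones. The site of the first promoter with the largest sum over the samples, in the 5' UTR at 103411964, had 46, 56 and 37 reads, which did not differ beyond counting error. The same held for the intronic site at 103424513 with 45, 33 and 35 reads and for 103411277, upstream of the first start, with 16, 22 and 15. At the intronic site 103424411, with 20, 32 and 32 reads, the treated to undifferentiated ratio was 1.96 (1.09 to 3.62), under 2-fold. Of the Elf5 sites named, 103423603, 103424326 and 103424358 were chosen after their values were seen.

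**Figure D2:**
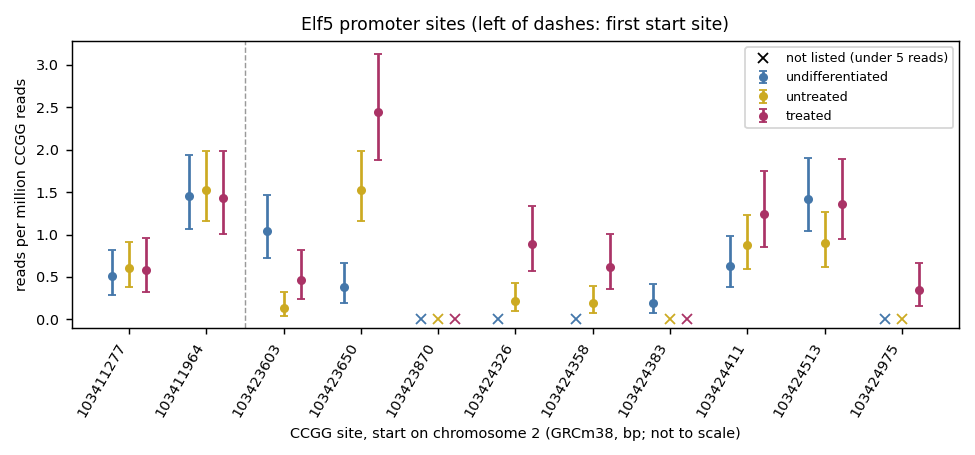
Scaled reads at the 11 CCGG motifs of the Elf5 promoters on chromosome 2, in the undifferentiated, untreated and treated samples, with 95% Poisson intervals. Crosses mark sites with under 5 reads. Relative to the undifferentiated sample, the neighbours 103423603 and 103423650 changed in opposite directions.

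The fragments of these Elf5 sites are shown because their counts changed within one promoter. They are 32 bases of the GRCm38 plus strand, with the CCGG in capitals. They lie at chr2:103423589-103423620, chr2:103423636-103423667, chr2:103424312-103424343 and chr2:103424344-103424375.
Elf5 103423603: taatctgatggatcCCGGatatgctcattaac
Elf5 103423650: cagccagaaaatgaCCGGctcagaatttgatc
Elf5 103424326: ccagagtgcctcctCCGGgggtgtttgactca
Elf5 103424358: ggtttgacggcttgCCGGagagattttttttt

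RefSeq promoter sequences of 300 bases (GRCm38.p6) were matched for 4 of the 7 genes. The one at the later Elf5 start is given because the changed sites surround it, at chr2:103423818-103424117 on the plus strand. Its single CCGG, in capitals and read the same on both strands, is the motif at 103423870, which was unlisted in all 3 samples. It held 10 CpG, more than 56.5% of the 32851 RefSeq promoters of this length, and 52.8% of these held a CCGG.
Elf5 promoter: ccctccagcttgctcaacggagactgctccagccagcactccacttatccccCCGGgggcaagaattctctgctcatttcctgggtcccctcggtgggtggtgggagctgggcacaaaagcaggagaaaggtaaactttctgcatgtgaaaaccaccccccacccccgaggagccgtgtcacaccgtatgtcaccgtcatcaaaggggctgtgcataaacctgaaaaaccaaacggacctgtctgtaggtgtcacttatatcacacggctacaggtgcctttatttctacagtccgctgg

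In the Elf5 body the summed values were 32.7, 32.2 and 29.5 scaled reads in the undifferentiated, untreated and treated samples. The treated to undifferentiated ratio was 0.902 (0.820 to 0.991), opposite in direction to the 1.67 of the promoter within 1 kb. Within 3 kb the promoter ratio was 0.925, in the same direction as the body. In the intron at 103434677 the site had 21, 65 and 63 reads and was higher in the untreated (2.67, 1.61 to 4.60) and treated sample (3.68, 2.22 to 6.35). Another intronic site, at 103414118, had 109, 86 and 38 reads and was lower in the treated sample (0.428, 0.288 to 0.624). The site at 103441720 had 77, 67 and 31 reads and was also lower in the treated sample. The intronic site at 103443205, with the most body reads summed over the samples, had 118, 126 and 81 reads. The intronic site at 103413655 had 74, 143 and 59, the most in the untreated sample, and the 3' UTR site at 103450811 had 94, 120 and 62, with no called change. In the flanks the values were 9.81, 14.6 and 14.4 scaled reads, with ratios of 1.49 and 1.46 to the undifferentiated sample. With RPM these were 1.19 and 0.905, so that the direction of the treated value turned. The flank site with the largest sum over the samples, at 103458092, had 73, 131 and 92 reads.

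Cdx2 encodes a caudal-type homeodomain factor that specifies the trophoblast, and lies on chromosome 5 at 147300805 to 147307270 on the minus strand. None of its 9 promoter motifs was listed in the undifferentiated or untreated sample. The treated sample listed 2, with 7 reads in the intron at 147306431 and 9 reads in the coding exon at 147306868, and neither was a called change. The body had 59, 64 and 141 reads in the undifferentiated, untreated and treated samples, with a treated to undifferentiated ratio of 2.93 (2.15 to 4.04). Counting each unlisted site of the undifferentiated sample as 4 reads, this ratio was 1.50, and with RPM it was 1.81, so that it reached 2-fold on neither. The treated to untreated ratio of the body was 3.13 (2.32 to 4.28) and 2.42 with RPM. With unlisted sites of both samples counted as 4 reads it was 2.02, and with those of the untreated sample alone the lower bound was 1.73. The intronic site at 147305683 had 20 reads in the treated sample and was unlisted in the others, at least 6.13 times the undifferentiated value, and was chosen after its values were seen. The flanks had 15.0, 18.1 and 29.7 scaled reads. Upstream of the gene, the site at 147313127 had 34, 48 and 75 reads and was higher in the treated sample than in the undifferentiated (2.71, 1.78 to 4.19) and the untreated sample (2.22, 1.53 to 3.26). Farther upstream, the site at 147317066 had 22, 63 and 79 reads and was higher in the untreated (2.47, 1.50 to 4.22) and treated sample (4.41, 2.72 to 7.42). Nearer to the gene, the site at 147310993 had 24, 49 and 54 reads and was higher in the treated sample (2.76, 1.68 to 4.67). The site at 147295713, downstream, had 71, 97 and 70 reads with no called change.

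Tead4 encodes the DNA-binding partner of the Hippo coactivators and lies on chromosome 6 at 128224288 to 128300823 on the minus strand. Its 16 promoter motifs gave 0, 1 and 3 listed sites in the undifferentiated, untreated and treated samples, and no promoter site was called. The treated sample had 6 reads each in the introns at 128300013 and 128300248 and the 5' UTR at 128300294, and the untreated sample 7 in the 5' UTR at 128300548. The summed treated to untreated ratio was 3.66 (1.46 to 10.4), and 1.49 when unlisted sites of both samples were counted as 4 reads. Counting them so in the untreated sample alone, the lower bound was 0.382. Its body, with 64 motifs, had the largest sum of the 7 in the undifferentiated and untreated samples, with 59.4 (56.7 to 62.2) and 46.0 (43.8 to 48.2) scaled reads, and had 49.5 (46.8 to 52.3) in the treated sample. Per motif the Elf5 body was deeper in these 2 samples, with 1.21 and 1.19 against 0.928 and 0.719 scaled reads. The ratios to the undifferentiated sample were 0.774 (0.725 to 0.827) and 0.833 (0.775 to 0.895), so that both differentiated samples were lower. Of 56 body sites compared between the untreated and undifferentiated samples, 16 were lower and 5 higher (28.6% and 8.93%), against 15.5% and 12.4% of body and flank sites of all protein-coding genes. Among the lower ones, the intronic site at 128269682 had 118, 59 and 27 reads, with ratios of 0.431 (0.310 to 0.594) and 0.281 (0.178 to 0.429) to the undifferentiated sample. Likewise, the one at 128276579 had 106, 50 and 35 reads, with ratios of 0.407 and 0.405. In the other direction, the intronic site at 128250399 had 30, 69 and 63 reads and was higher in the treated sample (2.58, 1.64 to 4.12). The intronic site at 128262359 had 71, 89 and 91 reads and the flank site at 128223919 had 118, 128 and 52, with no called change.

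Gata3 encodes a zinc finger factor and lies on chromosome 2 at 9857078 to 9890034 on the minus strand. Its promoter had 6, 7 and 66 reads in the undifferentiated, untreated and treated samples, over 1, 1 and 6 listed sites of 12. The treated to undifferentiated ratio of the listed reads was 13.5 (5.88 to 38.1). It was 1.62 when each unlisted site of the undifferentiated sample was counted as 4 reads, and 2.21 when those of both samples were, so that the size of this change is not fixed by the tables. The intronic sites at 9878117 and 9878227 had 19 and 20 reads in the treated sample only, at least 5.83 and 6.13 times the undifferentiated value. Nearby, the intronic site at 9878090 had 6 undifferentiated and 11 treated reads and was unlisted in the untreated sample, a treated value at least 3.91 times the untreated one. The untreated sample listed the site at 9878865 alone, upstream of the start, with 7 reads, and the 5' UTR site at 9877618 had 6 reads in the treated sample. The annotated gene extends past its only basic transcript, which starts at 9878600. In the body within that transcript the sums were 721, 827 and 771 reads, with a treated to undifferentiated ratio of 1.31 (1.18 to 1.45). In the body upstream of it the sums were 240, 293 and 578 reads, with a ratio of 2.95 (2.54 to 3.45). With unlisted sites of both samples counted as 4 reads, the second ratio fell under 2-fold, to 1.87 (lower bound 1.63). With RPM it was 1.83 and the first was 0.81. In the same upstream part the treated to untreated ratio was 2.81 (2.43 to 3.24) and 2.16 with RPM. With unlisted sites of both samples counted as 4 reads it was 2.06 (lower bound 1.78). The values with RPM and with 4 reads were added after the data were seen. Of the 106 body motifs, 43 lay in the promoters of 2 other protein-coding genes, 4930412O13Rik and 9230102O04Rik. The intronic site at 9859931 had 46, 120 and 59 reads and was higher in the untreated sample (2.25, 1.59 to 3.23). The 3' UTR site at 9857217 had 69, 103 and 79 reads and the intronic site at 9862639 had 71, 78 and 42, with no called change. In the upstream flank, the site at 9896977 had 33, 76 and 60 reads and that at 9892576 had 36, 51 and 64, both higher in the treated sample relative to the undifferentiated one, with ratios of 2.23 and 2.18.

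Tfap2c encodes an AP-2 factor and lies on chromosome 2 at 172549593 to 172558622 on the plus strand. Its promoter had 0, 5 and 10 listed sites in the undifferentiated, untreated and treated samples with 35 and 63 reads in the last 2, and a treated to untreated ratio of 2.56 (1.67 to 3.99). With unlisted sites of both samples counted as 4 reads, this ratio was 1.51, and with those of the untreated sample alone its lower bound was 0.664. The 3 start sites differed. Within 1 kb of the first (172549593) the sums were 0, 0 and 48 reads. Within 1 kb of the middle one (172550782) they were 0, 21 and 33, with a treated to untreated ratio of 2.24 (1.26 to 4.07). Within 1 kb of the last (172550991) they were 0, 35 and 21, with a ratio of 0.854 (0.472 to 1.51). The higher treated sum was thus not seen at the last start. With promoters of 1 kb upstream only, the ratio over all 3 starts was 13.7. No promoter site had more than 11 reads. The 2 differentiated samples shared 1 listed promoter site, at 172551251, with 7 and 5 reads. The highest single count was at 172549215, with 11 reads in the treated sample alone. This was at least 3.91 times the untreated value, and the site is not a CCGG in the reference genome. The coding exon site at 172551668 had 9 reads in the untreated sample, and 5 sites had 7 reads in 1 sample. These were 172549581, just upstream of the start, and 172549591 and 172549826 in the 5' UTR for the treated sample, and 172551790 and 172551831 in coding exons for the untreated sample. The body had 354, 471 and 420 reads, with a treated to undifferentiated ratio of 1.46 (1.26 to 1.68), which turned to 0.899 with RPM. Within it, the intronic site at 172554716 had 19, 29 and 56 reads and was higher in the treated sample than in the undifferentiated one (3.62, 2.12 to 6.44), and was chosen after its values were seen. The intronic site at 172554298 had 72, 127 and 70 reads with no called change, and that at 172555893 had 80, 76 and 32 and was lower in the treated sample. Downstream of the gene, the site at 172564293 had 25, 101 and 61 reads and was higher in the untreated (3.48, 2.23 to 5.64) and treated sample (2.99, 1.85 to 4.98). The site at 172567955 had 104, 79 and 34 reads and was lower in the treated sample (0.401, 0.264 to 0.596). The downstream site at 172565392 had 123, 102 and 74 reads and the upstream site at 172540591 had 84, 96 and 56, with no called change.

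Eomes encodes a T-box factor and lies on chromosome 9 at 118478212 to 118486132 on the plus strand. Its promoter had no listed site in the undifferentiated sample, 3 with 19 reads after untreated differentiation and 6 with 80 reads with pargyline. The treated to untreated ratio was 5.99 (3.60 to 10.5), and 2.3 when unlisted sites of both samples were counted as 4 reads. With those of the untreated sample alone, the lower bound was 1.44. The site at 118477483, 729 bp upstream, had 6 reads without and 31 with pargyline, at least 9.51 times the undifferentiated value. The site at 118477940, 272 bp upstream, had 14 reads in the treated sample only, and those at 118477781 and 118477923 had 11 and 5. The first of these was at least 3.91 times the untreated value and the second was not called. The site at 118477525 had 6 and 10 reads in the untreated and treated samples, and the coding exon site at 118478855 had 7 and 9. Body values were 9.08, 9.47 and 10.7 scaled reads and overlapped within their intervals. In the flank, the site at 118490347 had 8, 52 and 33 reads and was higher in the untreated (5.61, 2.64 to 13.7) and treated sample (5.06, 2.29 to 12.7). The upstream site at 118470965 had 97, 94 and 80 reads with no called change, and that at 118470129 had 99, 84 and 40 and was lower in the treated sample. The coding exon site at 118484849 had 75, 111 and 61 reads with no called change, and the intronic site at 118480674 had 18, 31 and 30 and was higher in the treated sample (2.04, 1.10 to 3.90).

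The deepest promoter fragments of Eomes and Gata3 in the treated sample are shown because the undifferentiated sample did not list them. They lie at chr9:118477469-118477500 and chr2:9878213-9878244 of the plus strand, with the CCGG in capitals.
Eomes 118477483: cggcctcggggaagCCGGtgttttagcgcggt
Gata3 9878227: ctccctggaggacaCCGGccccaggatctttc

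Hand1 encodes a basic helix-loop-helix factor and lies on chromosome 11 at 57828705 to 57832818 on the minus strand. Its promoter had 85, 131 and 125 reads, or 2.69 (2.15 to 3.32), 3.57 (2.99 to 4.24) and 4.85 (4.04 to 5.78) scaled reads in the undifferentiated, untreated and treated samples. The treated to undifferentiated ratio was 1.80 (1.36 to 2.41), under 2-fold, and 1.11 with RPM. The site at 57832927, 109 bp upstream, was unlisted in the undifferentiated sample and had 18 reads in each differentiated sample, at least 3.88 and 5.52 times higher. The 5' UTR sites at 57832737 and 57832817 had 6, 9 and 21 and 5, 16 and 19 reads, with treated to undifferentiated ratios of 4.29 (1.68 to 13.0) and 4.66 (1.68 to 16.0). The site at 57833721 had 16, 5 and 8 reads and was lower in the untreated sample (0.270, 0.0772 to 0.770), and was chosen after its values were seen. The promoter site with the largest sum over the samples, in the 5' UTR at 57832072, had 33, 29 and 20 reads and the site at 57832889 had 9, 16 and 5, with no called change. The body had 59, 95 and 130 reads, with a treated to undifferentiated ratio of 2.70 (1.97 to 3.74). This ratio was 2.02 with unlisted sites of the undifferentiated sample counted as 4 reads and 1.67 with RPM. Within the body, the intronic site at 57830353 had 11, 33 and 34 reads and was higher in the untreated (2.59, 1.28 to 5.68) and treated sample (3.79, 1.88 to 8.30). In the flanks, the site at 57818839 had 102, 80 and 34 reads and was lower in the treated sample, and that at 57833844 had 14, 11 and 20 and was higher than in the untreated sample. The upstream site at 57840532 had 6, 8 and 31 reads and was higher in the treated sample than in the undifferentiated (6.34, 2.61 to 18.6) and the untreated one (5.51, 2.48 to 13.9). The sites at 57820500 and 57821153 had 57, 103 and 52 and 39, 49 and 52 reads, with no called change.

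Over the 7 genes, few promoter sites were called between the untreated and undifferentiated samples. Of 30 compared, 2 were higher and 2 lower, against 9.54% and 9.52% of promoter sites of all protein-coding genes. Of 308 body and flank sites, 33 were higher and 38 lower (10.7% and 12.3%), against 12.4% and 15.5%. Over all regions 35 of 338 were higher and 40 lower, against 12.5% and 15.2% of CCGG sites of the genome. With RPM, 15 were higher and 53 lower (4.44% and 15.7%), against 7.16% and 21.5% of the genome. These shares were at or below those of all genes.

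Between the treated and undifferentiated samples, 10 of 47 promoter sites were higher and 1 lower (21.3% and 2.13%), against 18.1% and 6.5% for all promoters. In bodies and flanks, 85 of 369 sites were higher and 37 lower (23.0% and 10.0%), against 17.2% and 14.8%. Over all regions 95 of 416 were higher and 38 lower, against 17.4% and 14.2% of the genome. With RPM as the scale, 45 were higher and 72 lower (10.8% and 17.3%), against 6.98% and 31.2% of the genome. The balance of directions thus turned with the scale, while on both scales the share of higher sites was above and that of lower sites below the genome. The median log2 ratio of the 232 member sites listed in both samples was 0.42, against 0.07 over the genome, and with RPM it was -0.27, against -0.62. Without RPM, the median at the 14 promoter sites was 0.164, below the 0.295 of all promoters. At the 218 body and flank sites it was 0.451, above the 0.0489 of all genes.

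Between the treated and untreated samples, 11 of 52 promoter sites were higher and 0 lower, against 14.5% and 2.06% for all promoters. In bodies and flanks, 77 of 357 sites were higher and 2 lower (21.6% and 0.56%), against 9.69% and 4.14%. Over all regions 88 of 409 were higher and 2 lower (21.5% and 0.489%), against 10.0% and 3.98% of the genome. With RPM, 44 were higher and 23 lower (10.8% and 5.62%), against 4.74% and 11.7%. The median log2 ratio at the 249 body and flank sites listed in both samples was 0.40, against 0.03 over all genes. At the 22 promoter sites it was 0.669, against 0.286 for all promoters. Over all 271 member sites it was 0.43, against 0.0455 over the genome. With RPM it was 0.0547, against -0.33, so that the member median was close to no change on that scale.

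At the level of summed promoter reads, no member was called between the untreated and undifferentiated samples among the 3 with listed reads in both, against 13.7% higher and 7.64% lower of protein-coding genes. Between the treated and undifferentiated samples 1 of 3, Gata3, was higher and 0 lower, against 27.3% and 5.65%. Between the treated and untreated samples 4 of 6 (Gata3, Tfap2c, Tead4 and Eomes) were higher and 0 lower, against 19.3% and 2.71%. The 4 promoters had between 7 and 35 reads in the untreated sample. With unlisted sites of both samples counted as 4 reads, their ratios were 2.51, 1.51, 1.49 and 2.3. In this setting 2 of 6 promoters stayed at 2-fold or more (33.3%), against 6.22% of all protein-coding genes. It starts above 1, since 4 reads are a larger scaled value in the treated library. The Klf5 promoter, with 15 untreated and 6 treated reads, was at 1.32, so values near 1.5 do not show an excess. The lower bounds, with 4 reads in the untreated sample alone, were 1.84, 0.664, 0.382 and 1.44. At these bounds 0 of 6 stayed at 2-fold, against 3.29% of all genes. With RPM, Tfap2c was at 1.97.

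With promoters, bodies and flanks pooled, the treated sample listed a higher share of member motifs than of all genes in windows of each CpG class. The gap was smallest in low windows. In low windows 70.4%, 72.7% and 77.2% (72.1 to 81.7) of member motifs were listed in the undifferentiated, untreated and treated samples, against 68.2%, 68.2% and 68.1% around all protein-coding genes. In intermediate windows the shares were 22.4%, 33.3% and 58.9% (51.5 to 65.9), against 27.6%, 32.9% and 37.8%. In high windows they were 5.17%, 13.8% and 48.3% (35.0 to 61.8), against 3.05%, 9.06% and 11.3%. Without Gata3, a comparison chosen after the values were seen, the treated shares were 60.5% and 43.1% in intermediate and high windows. Hand1 listed 12 of 14 motifs in high windows in the treated sample and Eomes 1 of 8, so that the genes differed among themselves. CCAGG sites were also listed more often in the treated sample, and their part in these shares was not tested.

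**Figure D3:**
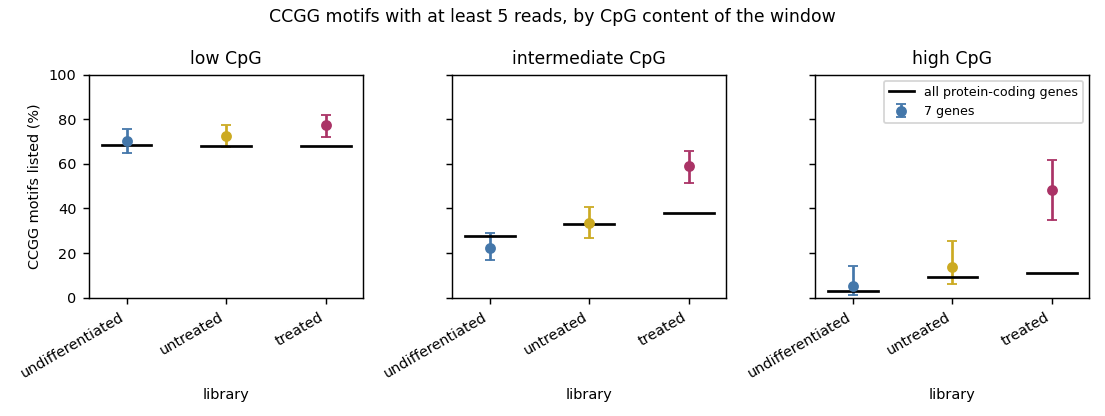
Percentage of CCGG motifs listed with at least 5 reads in each sample, by CpG content of the surrounding window. Points are the 7 genes with 95% Clopper-Pearson intervals and black lines all protein-coding genes. In high CpG windows the treated sample listed 48.3% of member motifs, against 11.3% around all genes.

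The protein-coding genes with promoter values most like Elf5 were Ffar2, Duox2 and Tnfrsf8, by the Euclidean distance of log2 of scaled promoter reads per motif plus 1 over the 3 libraries (0.0283, 0.0339 and 0.039). For Hand1 they were Sidt1, Kcnk10 and Cox19 (0.0225, 0.0238 and 0.0256).

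Of 20 other trophoblast genes, 2 promoters were called higher and 0 lower in the untreated sample relative to the undifferentiated one, out of 14 with listed reads in both (14.3% and 0%), against 13.7% and 7.64% of protein-coding genes. The same 2, Fgfr2, the receptor for the growth factor of trophoblast stem cells, and Arid3a, had 15, 44 and 91 and 23, 73 and 137 promoter reads in the undifferentiated, untreated and treated samples. In the treated sample 6 of 15 were higher than in the undifferentiated one, namely Tfap2a, Ets2, Fgfr2, Arid3a, Yap1 and Krt18, and Prl3d1 was lower (40% and 6.67%), against 27.3% and 5.65%. Tfap2a had 70, 71 and 267 promoter reads over its 40 motifs. Relative to the untreated sample 6 of 15 were higher and 0 lower, namely Tfap2a, Ets2, Esrrb, Fgfr2, Arid3a and Krt18 (40% and 0%), against 19.3% and 2.71%. These calls rest on listed reads, and the values with unlisted sites counted as 4 reads, here and for all genes, were added after the data were seen. With unlisted sites of both samples counted as 4 reads, 0 of the 2, 2 of the 6 (Tfap2a and Arid3a) and 2 of the 6 (Tfap2a and Esrrb) higher promoters of the 3 comparisons stayed at 2-fold, and Fgfr2 in the first was at 0.950. That left 0%, 13.3% and 13.3% of the compared promoters, against 2.76%, 9.42% and 6.22% of all genes. At the lower bounds none of them stayed at 2-fold, against 2.27%, 6.15% and 3.29% of all genes. There 2 of 2, 3 of 6 and 2 of 6 were below 1, among them Fgfr2 in each, against 59.0%, 39.5% and 42.7% of the higher promoters of all genes. Summed over the 3 samples, the promoters with the most reads per motif were those of Gcm1 and Prl3d1, with 3.16 and 3.08 scaled reads, and their 2 and 1 motifs make these values coarse. Tpbpa and Ctsq had no CCGG motif in the promoter. The lowest with motifs by this sum were Sox2, with 12 reads in the treated sample only, and Klf5, with 0, 15 and 6 reads. Sfmbt2, chosen after its values were seen, also had no listed promoter site in the undifferentiated and untreated samples and had 67 reads in the treated one.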

How the data were processed

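MethylRAD libraries of 3 samples were analysed from the tables the authors deposited, which give the read count and the RPM (reads scaled to all mapped reads) of each CCGG, CCAGG or CCTGG site. The authors trimmed the reads, kept those with a recognition site, mapped them uniquely with Bowtie2 2.3.3 to GRCm38 and removed sites under 5 reads. The submitters' notes also name FastQC 0.11.3. Only CCGG counts were compared, scaled to the CCGG reads of each table. CCWGG counts were left out, because near the 7 genes CCTGG counts were identical in all tables and CCAGG counts in the undifferentiated and untreated ones. Treated CCAGG counts mostly differed from these, with 9 equal among 79 shared sites. Start sites were those of basic GENCODE M21 transcripts. Ratios have exact conditional binomial intervals, sums Poisson intervals and shares Clopper-Pearson intervals, computed with Python 3.11.15, pandas 2.3.3 and SciPy 1.17.1 and checked on simulated counts. Named sites were all listed promoter sites of a gene with at most 6 of them, otherwise its 5 deepest by summed reads, ties included, and per gene the 3 deepest and up to 3 deepest called sites of bodies and flanks, and sites outside this rule are marked where named. The members and gene lists were chosen with earlier results of these data known. Alternatives covered scaling, read and fold cutoffs, promoter and flank widths and start sites. Of 561 motifs, 34 had another CCGG within 10 bp and may share reads.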

Additional observations from a re-analysis of the deposited data

Results flagged for a closer look

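CCAGG sites lie outside the comparisons above and appeared above the undifferentiated level near the 7 genes. In their promoters 4, 4 and 24 CCAGG sites were listed in the undifferentiated, untreated and treated samples. Over all regions 91, 91 and 356 were listed, with 1501, 1501 and 4759 reads. The 91 counts of the undifferentiated and untreated samples were identical, so the 2 tables give no independent values there. Genome-wide the treated table held 893047 CCAGG sites against 268384 in the undifferentiated sample. The reason was not tested.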

How the results depend on the processing

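No paired analysis was possible because each condition had 1 library. Of 132 alternative values for the site counts and the Elf5 promoter ratios, 96 stayed within 1.5 times or within the counting interval. The 3 Elf5 ratios were under 2-fold, and 4 of their 24 alternative values lay on the other side of 1. The values outside follow in the order undifferentiated, untreated, treated, and the cause was not tested beyond the construction of each setting. Listed promoter sites numbered 15, 28 and 46 (1 of them at a substituted motif). They were 8, 11 and 21 with at least 10 reads, 51, 68 and 113 within 3 kb and 7, 12 and 20 within 1 kb upstream only. With start sites of all transcripts they were 26 and 47 in the first 2 samples, and with one scaled cutoff 15 in the untreated sample. Listed flank sites fell from 104, 110 and 140 to 40, 47 and 71 with 5 kb flanks.

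Called sites between the untreated and undifferentiated samples were 35 higher and 40 lower. With RPM 15 were higher. At 3-fold they were 21 and 26, and among sites listed in both 22 and 26. For treated against undifferentiated (95 and 38) they were 45 and 72 with RPM, 17 lower at 3-fold, and 51 higher among sites listed in both. For treated against untreated (88 and 2) they were 44 and 23 with RPM and 54 and 1 among sites listed in both. The lower ones numbered 13 at 1.5-fold and 1 at 3-fold. The Elf5 promoter ratios of 1.06, 1.67 and 1.57 were 0.851, 1.03 and 1.21 with RPM and 0.851, 0.925 and 1.09 within 3 kb. For single genes, 65 of 251 alternative values lay outside the counting interval. None of 44 alternative values of the 8 called ratios crossed 1, and 30 of 207 of the other ratios did, 18 of them with RPM. Where unlisted sites entered, those of both samples were counted as 4 reads, which is a weak check of direction. That setting took 0 of 2690 promoters of all genes, higher in the treated than the untreated sample, below 1. With 4 reads in the untreated sample alone, the lower bounds of the Tfap2c and Tead4 promoters were 0.664 and 0.382. Ends of genes taken from basic transcripts were added after the data were seen. Sites near 5 reads are limited by depth, since the cutoff differs between samples on the scaled axis.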

Other observations

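Of 137 sites near the 7 genes with at least 20 reads in the undifferentiated sample, 4 (2.92%) were unlisted in both differentiated samples, against 1.78% around all protein-coding genes. With at least 40 reads, 2 of 65 (3.08%) were unlisted, against 0.582%. These cutoffs were chosen after the values were seen.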
